A study of Mus musculus with 6 samples.

Results

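The genes examined here encode beta subunits of the sodium-potassium pump (Na+/K+-ATPase) and its small FXYD regulators. The 7 genes were Atp1b1, Atp1b2, Atp1b3, Fxyd1, Fxyd5, Fxyd6 and Fxyd7, picked by name from a table of 59699 loci, and all 7 passed the filter on low counts. Atp1b2 was chosen for its strong rise in the knockout, so its difference between the groups is given as a description with no test. The other 6 were chosen by gene family, in a set proposed with earlier results of these data known. RNA was sequenced from adrenal glands of 3 wild-type (WT) and 3 Armc5(-/-) knockout (KO) samples, all from female mice aged 30 weeks on a 129 sv X CD1 background. ARMC5 protein links targets to a cullin-based ubiquitin ligase, and people with bilateral macronodular adrenal hyperplasia can carry mutations of its gene. The labels do not say which part of the gene was deleted, which cells lost it, or whether each sample came from a separate animal, so a p-value here reflects only how these samples vary, which may be technical. The comparison asks how the RNA of the pump's accessory subunits differs between the genotypes, and how the subunits are mixed within each.

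The sodium pump is a membrane enzyme that uses ATP to move sodium out of the cell and potassium in, and so maintains the ion gradients behind the membrane potential and sodium-coupled transport. Its alpha subunit binds the ions and splits ATP, its beta subunit is needed to fold the alpha subunit and bring it to the cell surface, and FXYD proteins bind the complex and tune its affinity for ions. In the adrenal cortex the membrane potential governs aldosterone output. In the medulla, chromaffin cells are electrically excitable and release catecholamines.

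Coding sequence is shown for 3 of the FXYD genes because it holds the signature that defines the family. Each runs 5′ to 3′ over 45 bases of a GENCODE M21 transcript (GRCm38 annotation), and capitals mark the 12 bases that code for the Phe-X-Tyr-Asp motif. Each coding sequence held 1 such motif, at coding bases 85 to 96 in Fxyd1 and Fxyd6 and at bases 406 to 417 in Fxyd5, whose coding sequence of 555 bases was longer than the 276 of Fxyd1 and the 282 of Fxyd6.
Fxyd1: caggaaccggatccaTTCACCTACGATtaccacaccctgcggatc
Fxyd5: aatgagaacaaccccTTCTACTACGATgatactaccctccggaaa
Fxyd6: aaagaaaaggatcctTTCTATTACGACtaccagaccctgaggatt

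Promoters are shown for Atp1b1 and Atp1b3, the beta subunit genes other than Atp1b2, whose values lay on opposite sides of WT in the KO. Each sequence gives the 250 bases before the RefSeq start (GRCm38.p6), 5′ to 3′ on the minus strand, from chr1:164458356-164458605 for Atp1b1 and chr9:96364432-96364681 for Atp1b3. For Atp1b3 this is 1 of the RefSeq starts, and the window before the other start is not shown. Capitals mark matches on either strand to a GC box (GGGCGG) or a CCAAT box (CCAAT), and no matches overlapped.
Atp1b1: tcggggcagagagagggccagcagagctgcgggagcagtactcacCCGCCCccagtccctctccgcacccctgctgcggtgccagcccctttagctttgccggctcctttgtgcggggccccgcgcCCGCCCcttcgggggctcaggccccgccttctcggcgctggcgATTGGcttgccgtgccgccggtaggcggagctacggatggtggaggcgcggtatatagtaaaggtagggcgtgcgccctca
Atp1b3: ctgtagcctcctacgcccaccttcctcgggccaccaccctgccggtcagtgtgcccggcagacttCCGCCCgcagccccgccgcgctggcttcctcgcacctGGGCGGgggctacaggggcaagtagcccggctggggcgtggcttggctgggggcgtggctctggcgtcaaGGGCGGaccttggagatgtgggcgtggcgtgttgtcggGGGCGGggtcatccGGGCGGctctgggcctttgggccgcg
The Atp1b1 window held 2 GC boxes and 1 CCAAT box, and the Atp1b3 window held 5 GC boxes and no CCAAT box. Neither held a TATA box (TATAAA), a CRE (TGACGTCA) or an E box (CACGTG) in those exact letters. Of 32851 promoter windows of the same length, 32.7% held a GC box, 33.8% a CCAAT box, 12.4% a TATA box, 1.55% a CRE and 6.02% an E box. G and C made up 70.4% of the Atp1b1 window and 73.6% of the Atp1b3 window, against a median of 52.4% over all windows. The other Atp1b3 window, chr9:96363716-96363965, held 0 GC boxes, 0 CCAAT boxes and 1 E box, with 76.8% G and C, so the matches depend on the start chosen. These matches are a description of the sequence and show no bound factor.

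Total counts ranged from 70547288 to 130573434 per library. Values below are CPM, read counts relative to the TMM-scaled library size of named loci, and fold changes and adjusted p-values come from edgeR's quasi-likelihood test across 21358 loci with Benjamini-Hochberg adjustment. Armc5 lay at 26.8 ± 1.35 CPM (SD, n = 3) in WT against 3.59 ± 0.063 CPM in KO, in the direction the genotype labels give. Of all tested loci, 393 (1.84%) were called at an adjusted p under 0.05, 301 of them higher and 92 lower in KO. Leaving out 1 library gave between 15 calls (without KO replicate 1) and 644 (without WT replicate 2). KO replicate 3 held hepatocyte transcripts, with 8 marker genes summing to 3501 CPM against 17.3 to 61.7 CPM in the other libraries.

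Atp1b2 was the beta subunit gene that differed most between the genotypes. It encodes the beta 2 subunit, also known as adhesion molecule on glia. It occupies bases 69599736 to 69605942 of chromosome 11 (minus strand, GRCm38). The gene was counted 4750, 5985 and 4234 times in the WT libraries and 33895, 22353 and 40293 times in the KO libraries. In CPM it lay at 46.9, 46.3 and 52.8 in WT and at 306.8, 293.2 and 311.2 in KO. All 3 KO libraries stood far above all 3 WT libraries, and the spread within each group was small. The mean was 48.7 ± 3.56 CPM in WT against 304 ± 9.41 CPM in KO (SD, n = 3), a 6.24-fold difference and a log2 fold change of 2.64 with a standard error (SE) of 0.095. Over 16 other ways of fitting the data the log2 fold change lay between 2.60 and 2.87. It was 2.62 without KO replicate 3, the library with hepatocyte transcripts. By size of rise Atp1b2 was number 128 of the 15261 loci with a mean of at least 1 CPM. Among the 1713 loci with a mean of at least 100 CPM it was number 3, after Alb, 1 of the hepatocyte markers, and Mgat4c, a glycosyltransferase gene. These ranks describe the values that chose the gene.

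Reads just beyond the end of Atp1b2 showed the same order. A locus without a name on the same strand begins after a gap of 354 bases past the 3′ end of the gene, at bases 69597691 to 69599381. It held 9, 3 and 9 counts in WT and 77, 94 and 88 in KO. A farther one on that strand, at bases 69595291 to 69595783, held 0, 0 and 9 counts in WT and 19, 15 and 24 in KO. Both were lower in every WT library than in any KO library, at counts far under those of Atp1b2, and neither was tested. Of all tested loci, 16.3% also lay above WT in every KO library. Unnamed loci as a whole held 1.39% to 1.56% of the counts of a WT library and 1.77% to 2.04% of those of a KO library. Whether the order of these 2 loci goes beyond that was not tested. On the opposite strand the table's Trp53 locus spans Atp1b2, since it is drawn past the annotated end of that gene. It lay at 47.0 ± 3.75 CPM in WT against 41.8 ± 1.27 CPM in KO (log2 fold change −0.17, SE 0.091, edgeR adjusted p = 0.326), so its counts did not follow those of Atp1b2. Of the nearby genes, Sat2 had a log2 fold change of 0.27 (edgeR adjusted p = 0.394) and Wrap53 one of −0.08 (edgeR adjusted p = 0.775).

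Atp1b1, which encodes the beta 1 subunit found in most tissues, lay higher in KO without passing the test. It occupies bases 164437109 to 164458355 of chromosome 1 (minus strand). Its level was 43.0, 65.8 and 43.2 CPM in the WT libraries and 90.5, 89.3 and 93.1 CPM in the KO libraries. The groups did not overlap, and WT replicate 2 stood above the other WT libraries. The means were 50.7 ± 13.1 and 91.0 ± 1.95 CPM (SD, n = 3), a 1.80-fold difference with a log2 fold change of 0.84, an SE of 0.18 and an edgeR adjusted p of 0.0697. The test was passed in 4 of 16 alternatives, among them edgeR without WT replicate 2 (adjusted p = 0.0161) and DESeq2 (adjusted p = 0.00171), and the highest adjusted p was 0.213. The value was above 0 in all 16.

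Atp1b3, which encodes the beta 3 subunit, lay lower in KO, again without passing the test. It occupies bases 96332655 to 96364442 of chromosome 9 (minus strand). Its level was 217.9, 148.0 and 215.2 CPM in WT and 120.9, 109.5 and 113.2 CPM in KO. Every KO library was below every WT library, and WT replicate 2 was the WT library nearest to the KO values. The means were 194 ± 39.6 and 114.5 ± 5.80 CPM (SD, n = 3), 1.69-fold lower in KO with a log2 fold change of −0.76, an SE of 0.16 and an edgeR adjusted p of 0.0698. The test was passed in 3 of 16 alternatives, which were edgeR without WT replicate 2 (adjusted p = 0.0209), DESeq2 (adjusted p = 0.00192) and limma-voom with sample quality weights (adjusted p = 0.028), and the highest adjusted p was 0.221. The value was below 0 in all 16. The table's Rnf7 and Xrn1 loci span the gene. Rnf7, on the same strand, had a log2 fold change of −0.40 (edgeR adjusted p = 0.228), and Xrn1, on the other strand, one of −0.04 (edgeR adjusted p = 0.869).

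**Figure D1:**
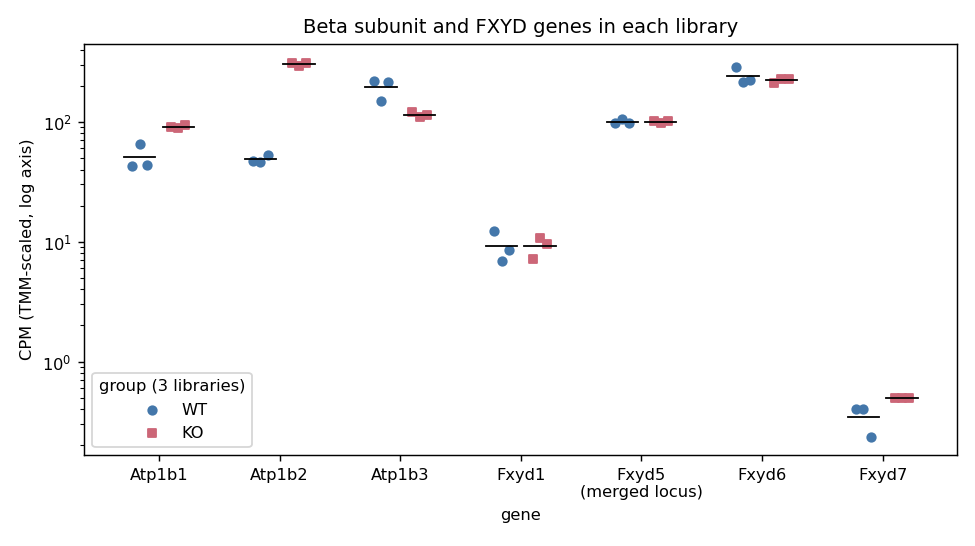
Level of each of the 7 genes in each library, in TMM-scaled CPM on a log axis; circles are WT, squares KO and lines the group means of 3 libraries. The KO libraries of Atp1b2 lie between 293.2 and 311.2 CPM against 46.3 to 52.8 CPM in WT, and the FXYD genes other than Fxyd7 overlap between the groups.

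Of the 7 genes, Atp1b2 alone was called, and 4 did not overlap between the groups, where 1.84% of all tested loci were called (1.41% higher and 0.431% lower in KO) and 30.5% did not overlap. Atp1b1, Atp1b2 and Fxyd7 lay above WT in every KO library, as did 16.3% of tested loci, and Atp1b3 lay below, as did 14.2%. Nothing is read from the count of called genes, since Atp1b2 was chosen for this contrast. Without WT replicate 2 the called genes were 3, Atp1b1, Atp1b2 and Atp1b3, beside 2.95% of tested loci. DESeq2 called the same 3 beside 12.3% of loci, limma-voom the same 3 beside 7.04%, and limma-trend called Atp1b1 and Atp1b2 beside 4.57%.

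The beta subunits were mixed differently in the groups. Shares were computed from reads per kilobase of the deposited gene length and carry no test, because the rise of Atp1b2 was the ground for choosing it. In WT, Atp1b3 gave 78.7%, 66.2% and 77.4% of the summed beta reads per kilobase, a mean of 74.1% ± 6.88 (SD, n = 3). Atp1b1 gave 11.4%, 21.7% and 11.5% in WT, and Atp1b2 9.90%, 12.1% and 11.1%. Atp1b3 was thus the leading beta subunit RNA in every WT library, with Atp1b1 and Atp1b2 at similar shares in replicates 1 and 3. In KO, Atp1b2 gave 48.9%, 49.4% and 50.0%, a mean of 49.5% ± 0.568, and led in every library. Atp1b3 gave 32.9%, 31.6% and 31.1% there, and Atp1b1 18.2%, 19.0% and 18.9%. The ratio of Atp1b2 to Atp1b3 per kilobase was 0.151 ± 0.029 in WT against 1.55 ± 0.063 in KO.

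**Figure D2:**
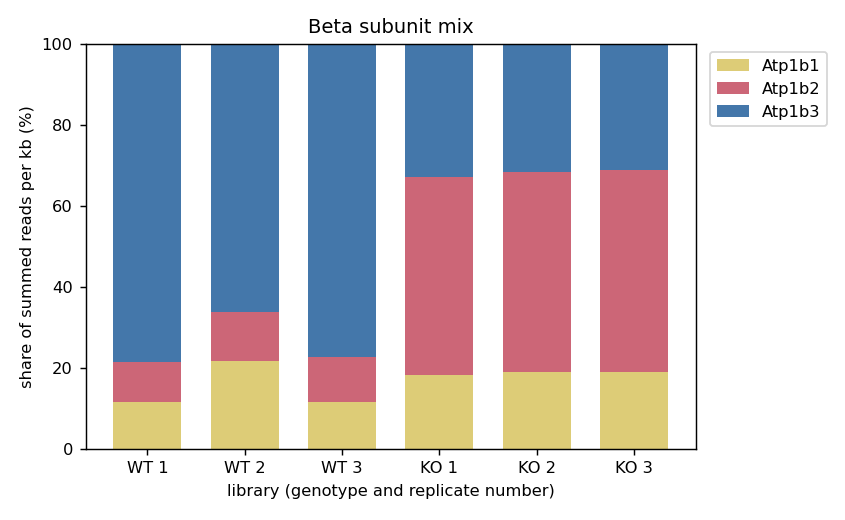
Share of Atp1b1, Atp1b2 and Atp1b3 in their summed reads per kilobase, in percent, for each library, with 1 stacked bar per library. Atp1b3 fills 66.2% to 78.7% of each WT bar, and Atp1b2 fills 48.9% to 50.0% of each KO bar.

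The beta RNAs together stood higher in KO, with no test, since the sum holds Atp1b2. Summed over Atp1b1, Atp1b2 and Atp1b3, the level was 115.9, 93.6 and 116.3 CPM per kilobase in WT and 153.7, 145.2 and 152.3 in KO, a 1.38-fold difference of the means. The groups did not overlap. The sum was 1.63-fold higher in KO with total counts alone and 1.60-fold higher when Rn7sk was set equal. Those scalings move the median log2 fold change of all tested loci to 0.22 and 0.19.

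Among the FXYD genes with a locus of their own, Fxyd6 was by far the most abundant. It encodes phosphohippolin and occupies bases 45370185 to 45396159 of chromosome 9 (plus strand). Its level was 289.0, 214.2 and 225.2 CPM in WT and 209.9, 225.7 and 229.0 CPM in KO. The groups overlapped, and WT replicate 1 was the highest library. The means were 243 ± 40.4 and 222 ± 10.2 CPM (SD, n = 3), with a log2 fold change of −0.13, an SE of 0.13 and an edgeR adjusted p of 0.598. The sign turned to 0.11 with total counts alone, a scaling that moved the median log2 fold change of all tested loci from −0.0063 to 0.22. The table's Tagln locus, on the other strand, spans Fxyd6 and lay at 19.5 CPM in WT against 9.54 CPM in KO.

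Fxyd1 encodes phospholemman, a phosphorylated pump regulator best known from heart and skeletal muscle. It occupies bases 31051678 to 31057199 of chromosome 7 (minus strand). Its level was 12.4, 6.93 and 8.50 CPM in WT and 7.23, 10.7 and 9.49 CPM in KO. The groups overlapped over almost their whole range, and the log2 fold change was −0.02 with an SE of 0.26 and an edgeR adjusted p of 0.970. Its sign changed between alternatives, from −0.18 to 0.24.

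Fxyd7, which encodes a regulator known mainly from brain, lies 210 bases from Fxyd1, at bases 31042513 to 31051467 of chromosome 7 (minus strand). It was counted only 41, 52 and 19 times in WT and 55, 38 and 64 times in KO. Its level was 0.405, 0.402 and 0.237 CPM in WT and 0.498, 0.498 and 0.494 CPM in KO. The groups did not overlap, but the counts were low, and the log2 fold change of 0.51 (SE 0.30) had an edgeR adjusted p of 0.372.

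Fxyd5 encodes dysadherin, which also affects cell adhesion, and could not be read on its own. Its row is a merged locus that also holds Usf2, Hamp2, Gramd1a and Mir7050, at bases 30789657 to 31155896 of chromosome 7 (minus strand). That interval spans Fxyd7, Fxyd1 and Fxyd3 on the same strand. The merged locus lay at 98.5, 104.6 and 96.8 CPM in WT and at 100.8, 97.6 and 102.1 CPM in KO. The groups overlapped, with a log2 fold change of 0.0033, an SE of 0.075 and an edgeR adjusted p of 0.986. How many of these reads were from Fxyd5 was not tested.

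The FXYD mix was therefore computed over Fxyd1, Fxyd6 and Fxyd7 alone. Fxyd6 gave 92.7% ± 0.737 of their summed reads per kilobase in WT and 91.7% ± 0.966 in KO (SD, n = 3, two-sided exact permutation p = 0.2). Fxyd1 gave 6.55% ± 0.859 and 7.06% ± 1.02 (exact permutation p = 0.5). Fxyd7 gave 0.793% ± 0.232 in WT and 1.22% ± 0.0711 in KO, with an exact permutation p of 0.1, the smallest that 3 samples against 3 allow. The design could not reach a p under 0.05, and Fxyd6 led the mix in all 6 libraries.

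Atp1a4, the alpha 4 subunit known from sperm, was scarce in both groups. It had 48, 41 and 27 counts in WT and 102, 77 and 116 in KO, or 0.376 ± 0.085 and 0.943 ± 0.059 CPM (SD, n = 3). The groups did not overlap, and the log2 fold change of 1.32 (SE 0.26) had an edgeR adjusted p of 0.0591. DESeq2, limma-trend and limma-voom each called it. Fxyd2, the gamma subunit known from kidney, lies 3509 bases past the end of Fxyd6. It had 2.41 ± 0.619 CPM in WT against 3.34 ± 0.200 CPM in KO (log2 fold change 0.47, SE 0.23, edgeR adjusted p = 0.291). Too low to be tested were Fxyd3 with 36 counts in each group, Fxyd4 with 2 and 1 counts, and Atp1b4 with 0 counts in WT against 3 in KO. The median log2 fold change over all tested loci was −0.0063.

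**Figure D3:**
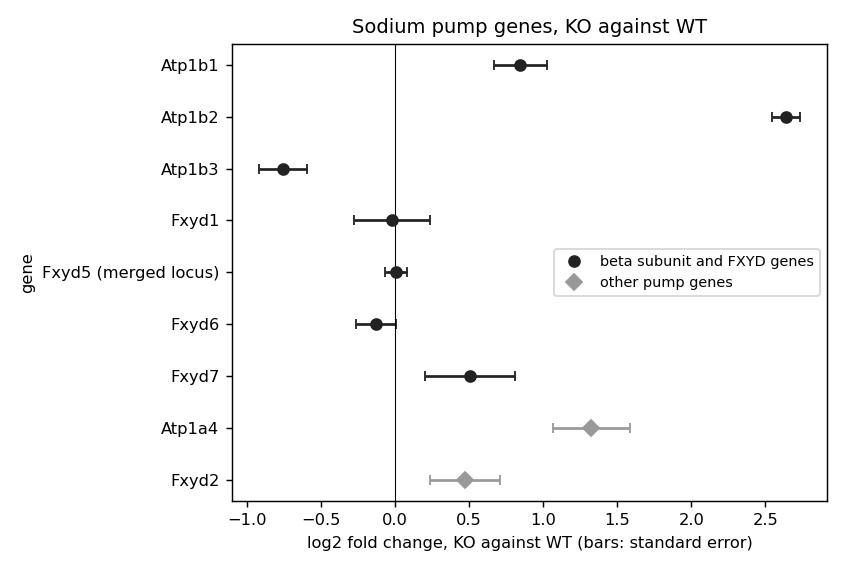
Log2 fold change of KO against WT for tested pump genes, with bars of 1 SE. Black circles are the beta subunit and FXYD genes and grey diamonds Atp1a4 and Fxyd2. Atp1b2 stands at 2.64, Atp1b1 and Atp1b3 lie on opposite sides of 0, and Fxyd1, Fxyd5 and Fxyd6 lie between −0.13 and 0.0033.

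The order of the genes reported here, by level per kilobase, differed between the groups mainly in the place of Atp1b2. In WT the order was Atp1b3 at 81.1 CPM per kilobase, Fxyd6 at 59.1, Atp1b1 at 15.6, Atp1b2 at 11.9 and Fxyd1 at 4.24. The ranges of Atp1b3 and Fxyd6 over the libraries overlapped, although Atp1b3 was higher within each WT library. The other neighbours in this order did not overlap. Fxyd7, at 0.502 CPM per kilobase, overlapped in range with Fxyd2 at 0.601, although Fxyd2 was higher within each WT library. In KO, Atp1b2 came first at 74.4 CPM per kilobase, followed by Fxyd6 at 53.9, Atp1b3 at 47.9, Atp1b1 at 28.1 and Fxyd1 at 4.17. There no neighbours down to Atp1a4 overlapped. Levels per kilobase depend on the gene length used, which counts all annotated exons. Against that length, the longest transcript was 2362 of 4107 bases for Fxyd6, 3751 of 4085 for Atp1b2 and 1994 of 2389 for Atp1b3. With the longest transcripts as lengths, Fxyd6 would have the highest mean of these genes in both groups, before Atp1b3 in WT and Atp1b2 in KO.

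**Figure D4:**
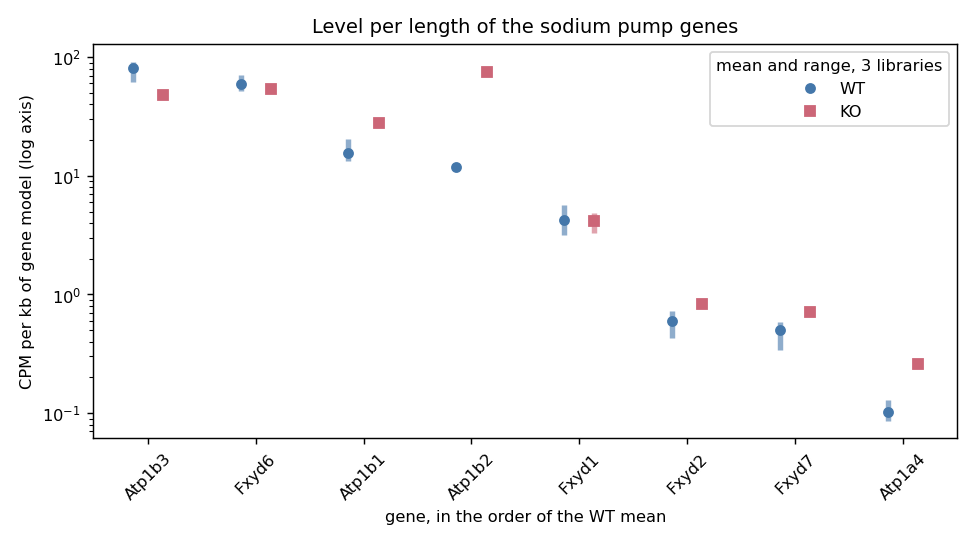
Level of the beta subunit genes and of the FXYD genes with a locus of their own, and of Atp1a4, in CPM per kilobase of gene model on a log axis, ordered by the WT mean. Points are means and bars the range over 3 libraries, with circles for WT and squares for KO. Atp1b2 stands at 11.9 in WT against 74.4 in KO, where it is the highest of the genes drawn at the gene length used.

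Of the marker lists for other cell types, those of chromaffin cells and multiciliated cells held more than 1 edgeR call, all higher in KO. In a bulk sample, more or fewer cells of a type and more or less RNA per cell cannot be told apart. The 20 chromaffin markers, genes of the catecholamine-producing medulla cells, summed to 3254 to 4690 CPM in WT and 6506 to 7218 CPM in KO, a 1.82-fold difference of the means. All 20 were tested, none was at 0, and 6 rose in KO by the edgeR test, namely Scg3, Chga, Gata3, Hand2, Dbh and Phox2a, beside 1.41% of all tested loci. DESeq2 called 19 of the 20, beside 12.3% of loci in either direction. Each of the 6 calls held without WT replicate 2 (adjusted p between 0.0161 and 0.0398) and was lost without any other 1 library, except that of Scg3 without WT replicate 1. Chga, the granule protein chromogranin A, lay at 616 ± 97.2 CPM in WT against 1128 ± 27.3 CPM in KO (SD, n = 3). The cortex markers, in 12 loci with none at 0, summed to 43091 to 72594 CPM in WT and 33672 to 39004 CPM in KO, and 0 of 12 were called by edgeR, with 4 at an unadjusted p under 0.05, as had 22.2% of all tested loci. DESeq2 and limma-voom each called 2 of these cortex loci, beside 12.3% and 7.04% of all tested loci, and limma-trend 0, beside 4.57%.

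The beta subunit genes stood differently against the chromaffin sum. Per 1000 CPM of chromaffin markers, Atp1b1 lay at 13.2, 14.04 and 12.9 CPM in WT and 12.5, 13.1 and 14.3 CPM in KO. The groups overlapped and the means were 13.4 ± 0.606 and 13.3 ± 0.903 (SD, n = 3). WT replicate 2, the highest WT library for Atp1b1, also had the highest chromaffin sum of that group. Atp1b2 on the same scale lay at 14.4, 9.88 and 15.7 CPM in WT and 42.5, 43.1 and 47.8 CPM in KO, a 3.34-fold difference of the means with no overlap. Atp1b3 lay at 67.0, 31.6 and 64.0 CPM in WT and 16.7, 16.1 and 17.4 CPM in KO. That scale rises in KO, whereas the cortex marker sum was 1.56-fold lower there, beside 1.69-fold for the CPM of Atp1b3. Most of that cortex sum lay in the Cyp11b1 locus, Star, Cyp21a1 and the Hsd3b1 locus, at 16639, 12971, 10894 and 7982 CPM in WT. Of the 12 cortex loci, 10 had a log2 fold change below 0 and 2 above. Their median was −0.40, beside −0.76 for Atp1b3. WT replicate 2, the lowest WT library for Atp1b3, also had the lowest cortex sum of that group. The part of chromaffin or cortex cells in these results was not tested beyond these values.

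**Figure D5:**
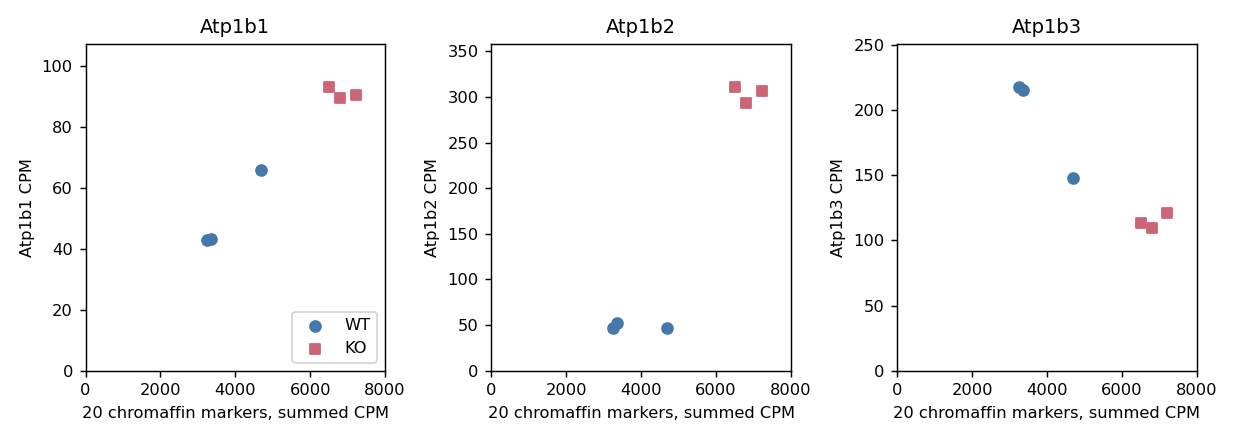
Level of each beta subunit gene in CPM against the summed CPM of 20 chromaffin markers, with 1 point per library, circles for WT and squares for KO. Atp1b1 lies between 12.5 and 14.3 CPM per 1000 CPM of markers in all 6 libraries, Atp1b2 is higher for its marker sum in KO, and Atp1b3 is lower where the sum is high.

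Atp1b2 is also a gene of glia, and the 12 Schwann and sustentacular markers summed to 103.7 to 152.1 CPM in WT and 155.9 to 173.6 CPM in KO. None was at 0, and 0 of 12 were called by edgeR, with 9 at an unadjusted p under 0.05 beside 22.2% of all tested loci. DESeq2 called 4, beside 12.3% of loci, and limma-trend and limma-voom 1 each, beside 4.57% and 7.04%. The list went both ways, with a log2 fold change above 0 for 4 markers and below 0 for 8. Most of the higher sum lay in Ncam1, a cell adhesion molecule that chromaffin cells also carry, at 63.8 ± 12.4 CPM in WT against 104 ± 4.99 CPM in KO (SD, n = 3). Erbb3 lay at 11.4 CPM in WT against 18.2 CPM in KO, and Ngfr at 7.46 and 12.3 CPM. Lower means in KO were those of Sox10, the transcription factor of the glial lineage, at 1.86 and 1.19 CPM (edgeR adjusted p = 0.439), and of S100b at 0.870 and 0.444 CPM (adjusted p = 0.173). The part of glial cells in the level of Atp1b2 was not tested.

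Of the 10 smooth muscle and pericyte markers, which Fxyd1 could share, 4 had a log2 fold change above 0 and 6 below. Their sum was 191 to 257 CPM in WT and 177 to 248 CPM in KO. Tagln was the 1 edgeR call, beside 0.431% of all tested loci called lower. It fell from 19.5 ± 1.49 to 9.54 ± 1.005 CPM (SD, n = 3, log2 fold change −1.03, edgeR adjusted p = 0.0205). That call was lost without WT replicate 3 or any KO library. The table's Tagln locus runs over 589280 bases, and how many of its reads were from Tagln was not tested. DESeq2 and limma-voom called 3 each, beside 12.3% and 7.04% of loci, and limma-trend 2, beside 4.57%. Acta2, smooth muscle actin, lay at 18.9 CPM in WT against 7.88 CPM in KO, while Rgs5, a pericyte marker, lay at 50.2 and 67.8 CPM, and Myh11 at 5.80 and 7.41 CPM. The leukocyte markers summed to 169 to 986 CPM in WT and 137 to 141 CPM in KO. Most of that gap lay in the merged locus of Lyz2 and Lyz1, the macrophage lysozymes, at 86.8, 669.9 and 452.7 CPM in WT against 47.9 ± 5.62 CPM in KO, and in Cd68 at 88.1 ± 76.8 and 17.5 ± 3.25 CPM. Ptprc, the pan-leukocyte CD45, lay at 35.0 ± 19.7 and 28.9 ± 1.499 CPM. The endothelial markers summed to 797 to 947 CPM in WT and 592 to 728 CPM in KO. All 9 had a log2 fold change below 0, and edgeR called 0, with 6 at an unadjusted p under 0.05 beside 22.2% of tested loci. DESeq2 called 6 of the 9, beside 12.3% of loci, limma-voom 1 and limma-trend 0. The multiciliated markers summed to 8.08 to 8.60 and 26.5 to 32.1 CPM, and most of the WT sum was Tppp3 at 7.67 CPM. Of the 6 tested, 3 were called higher by edgeR, beside 1.41% of all tested loci. In WT these held few counts, with 0, 0 and 5 for Dnah3, 11, 19 and 6 for Dnah9, and 30, 9 and 6 for Foxj1. They passed the filter on low counts through the KO libraries, so nothing is read from the share called. The part of all these cells in the results was not tested.

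Loci with a pattern like that of each gene were ranked by the root mean square difference of centred log2 CPM over the 6 libraries, among 15261 loci with a mean of at least 1 CPM. The 5 nearest to Atp1b2 were Vgf, a neuroendocrine secreted peptide precursor (difference 0.106), Nanos1 (0.162), Nefm, a neurofilament subunit (0.163), Mgat4c (0.225) and Csrnp2 (0.231). Vgf lay at 2.65 ± 0.216 CPM in WT against 16.5 ± 0.820 CPM in KO (SD, n = 3). Mgat4c had nearly the same levels as Atp1b2, at 48.4 ± 4.50 and 304 ± 73.0 CPM, with a wider spread in KO. Nearest to Atp1b1 were Klhdc8b (0.0525) and Syp, the synaptic vesicle protein synaptophysin (0.0578), which lay at 46.4 ± 9.86 CPM in WT against 84.9 ± 2.77 CPM in KO. Nearest to Atp1b3 were Fbxo36 (0.0737) and Gm28438 (0.0862). For the FXYD genes they were Wdr93 and Rgs2 for Fxyd1, Ndufaf3 and the Impa1 locus for Fxyd6, Rab15 and Fxyd2 for Fxyd7, and the Scaf8 locus and Ehmt2 for the merged Fxyd5 locus. All 6 libraries entered each measure, so it holds the contrast between the groups and is a description.

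Lists of related genes are set beside the share of all tested loci, of which edgeR called 1.84%, DESeq2 12.3%, limma-trend 4.57% and limma-voom 7.04%, and 22.2% had an unadjusted p under 0.05. Of the 17 pump partners, which bind, anchor or regulate the pump, edgeR called 1, with 5 at an unadjusted p under 0.05. DESeq2 called 3, limma-trend 1 and limma-voom 4 of these partners. Sgk1, the aldosterone-induced kinase that raises sodium transport, lay at 173.0, 158 and 152 CPM in WT and 97.0, 114 and 107.6 CPM in KO, with no overlap between the groups. It fell by 0.60 on the log2 scale (SE 0.099, edgeR adjusted p = 0.0465), but the call was lost when any 1 library was left out (adjusted p between 0.0633 and 0.185). The median log2 fold change of these partners was 0.02, with 9 of 17 above 0.

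Of the 8 tested related pumps, the calcium and proton pumps of the same P-type family, 0 were called by edgeR, with 2 at an unadjusted p under 0.05. DESeq2 and limma-trend each called 2 and limma-voom 1. Their median log2 fold change was 0.20, and those with the smallest p were the Atp2b4 locus (log2 fold change 0.37, SE 0.079, edgeR adjusted p = 0.0697), Atp4a (0.68, SE 0.19, adjusted p = 0.113) and Atp2b2 (0.39, SE 0.19, adjusted p = 0.280). Of the 28 tested genes of sodium-coupled transport, 0 were called by edgeR, with 10 at an unadjusted p under 0.05 and a median log2 fold change of −0.02. DESeq2 called 7, limma-trend 3 and limma-voom 4. Slc20a2, a sodium-phosphate cotransporter, lay at 41.0 ± 1.20 CPM in WT against 30.3 ± 0.376 CPM in KO (SD, n = 3, edgeR adjusted p = 0.0518). Slc8a2, a sodium-calcium exchanger, lay at 6.11 ± 0.988 and 10.8 ± 0.800 CPM (adjusted p = 0.0579). Slc4a4, a sodium-bicarbonate cotransporter, lay at 4.88 ± 1.99 and 16.2 ± 3.46 CPM (adjusted p = 0.0660).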

How the data were processed

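RNA of 3 WT and 3 KO adrenal gland samples was read from both ends at 100 bases after removal of rRNA, in libraries that keep strand, per the labels' protocols. The submitters' processing notes name GRCm38 and the tools Trimmomatic, STAR, Picard, StringTie and edgeR. Not given in the sources used here were the read counter, its strand setting and the tool versions. Raw counts, whole numbers per locus, are as the authors deposited them, per the file headers. Log2 CPM values, also deposited by the authors, entered only the limma-trend alternative, and deposited gene lengths gave reads per kilobase.

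Unnamed loci (6596, with 1.39% to 2.04% of a library's counts) stayed out of library sizes and tests. Named loci were filtered with filterByExpr, given TMM factors and tested with edgeR 4.0.16 (robust quasi-likelihood, two-sided, R 4.3.3), with p-values adjusted over all 21358 tested loci and a call at an adjusted p under 0.05. The test was checked on simulated data. The SE is the absolute log2 fold change over the square root of F. Shares of Fxyd genes were compared by two-sided exact permutation tests (scipy 1.17.1). The merged Fxyd5 locus was left out of that mix, a departure from the planned design. Other fits used RLE size factors, library totals alone, equal counts of Rn7sk, 2 other filters, the replicate number as a block, each library left out, WT replicate 1 and KO replicate 3 left out together, DESeq2 1.42.0, limma-trend and limma-voom (limma 3.58.1), and, for mixes, raw counts and the longest GENCODE transcript.

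The genes and the lists were chosen with earlier results of these data known. Named were all 7 genes, Armc5, other pump genes, called or lowest-p members of 3 related lists, called or most abundant markers, and the loci most alike in pattern. Neighbouring loci, and markers beyond that rule, were named after their values were seen. Some genes of the lists are not reported here. Coordinates are those of the deposited table, and promoter sequences are from RefSeq, matched by symbol. Replicate numbers were not used to pair the samples in the main fit. Deviations of same-numbered samples from their group means correlated at −0.0144, 0.0223 and −0.111 over 15029 loci. Differently numbered samples correlated at −0.0605 to 0.0705. These values cannot exclude handling shared by samples of the same number.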

Additional observations from a re-analysis of the deposited data

How the results depend on the processing

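Over 16 alternatives, Atp1b2 and Atp1b1 stayed above 0 and Atp1b3 below 0, and Fxyd7 stayed above 0 in its 15 (it had no value at 10 CPM in 3 libraries). The number of loci called, 393, became 672 with total counts alone and 711 when Rn7sk was set equal, where 94.8% and 94.1% of calls were higher in KO against 76.6% with TMM factors. It became 5 with the replicate block, in which 1 of the 7 genes was called, 16 without WT replicate 1 and KO replicate 3, 2626 with DESeq2, 975 with limma-trend, 1503 with limma-voom, and 15 to 644 with 1 library left out. Called among the 7 genes were 3 with DESeq2, 2 with limma-trend, 3 with limma-voom, and 1 to 3 with 1 library left out. The log2 fold change of Fxyd1 turned to 0.23 with total counts alone, 0.19 with equal Rn7sk counts, 0.0576 at 10 CPM in 3 libraries, 0.0042 with the replicate block, 0.21 without WT replicate 1 and KO replicate 3, 0.23 with limma-trend, 0.0013 with limma-voom, 0.24 without WT replicate 1 and 0.12 without KO replicate 1, within a range of −0.18 to 0.24 with 1 library left out. That of the merged Fxyd5 locus turned to −0.0004 with RLE size factors and with DESeq2, −0.02 without WT replicate 1 and KO replicate 3, and between −0.0221 and −0.0029 without WT replicate 1, WT replicate 3, KO replicate 1 or KO replicate 3, within a range of −0.0221 to 0.0552 with 1 library left out. It was 0.23 with total counts alone, 0.20 with equal Rn7sk counts and 0.23 with limma-trend, none called. That of Fxyd6 turned to 0.11, 0.0797 and 0.10 with total counts alone, equal Rn7sk counts and limma-trend, and ranged from −0.20 to 0.0104 with 1 library left out, turning without WT replicate 1. From raw counts with no length, Atp1b1 gave 17.9% of the beta sum in KO, Atp1b2 16.7% in WT and 59.6% in KO, and Atp1b3 65.6% in WT and 22.5% in KO. With the longest transcript, the KO shares were 20.3%, 46.6% and 33.1%. In WT and KO, Fxyd1 gave 3.62% and 3.93% of the FXYD sum from raw counts and 11.7% and 12.6% with the longest transcript, Fxyd6 96.2% and 95.9%, or 87.9% and 86.8%, and Fxyd7 0.139% and 0.215%, or 0.433% and 0.665%. With the merged Fxyd5 locus, chosen after seeing the data, Fxyd6 gave 84.4% and 83.0%, and Fxyd7 1.10% in KO. Except where fewer samples or another length enter, the cause was not tested. Low counts limit Fxyd7 and Atp1a4.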

Other observations

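On the plus strand of chromosome 7, the merged locus of the predicted genes Gm17077 and Gm4673 (bases 30955825 to 31039886) overlaps the Fxyd5 gene on the other strand (bases 31032722 to 31042481) and stood apart in 1 WT library. It had 157 counts in WT replicate 1, against 1433 and 1111 in the other WT libraries and 1855, 1483 and 1764 in KO. The log2 fold change was 0.91 with an SE of 0.69 (edgeR adjusted p = 0.475).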
